A study of Mus musculus with 2 samples.

Results

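Ptgds, Glul, Selenop, Lta4h and Hpse are 5 genes of lipid mediator, glutamine, selenium and heparan sulfate metabolism whose transcripts were among the most abundant of the genes listed for GFP positive cells of the newborn mouse cochlear lateral wall. They were taken by symbol from a table of 4197 genes, in which Selenop stands under its older name Sepp1, and all 5 were found. They had been picked for their high GFP positive level in this same comparison, so their levels and ratios are a description and carry no test. The lateral wall was dissected from inner ears of mice at postnatal day 0, and after trypsin treatment its cells were sorted by GFP, so that a positive fraction and a negative fraction entered RNA sequencing. The GFP positive sample is labelled with the genotype wnt1CRE::Ai3 and the GFP negative sample with wnt1CRE::Ai4, while the extraction protocol in the labels speaks of an EYFP reporter for all mice. By the genotype labels, fraction and reporter genotype change together and cannot be told apart in any ratio here. Cre recombinase under the control of Wnt1 marks descendants of the neural crest, which include pigment cells and peripheral glia, so GFP positive does not mean intermediate cell alone. The labels list 1 sample per fraction and do not say how many animals were pooled.

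Intermediate cells are the pigment cells of the stria vascularis, the tissue that secretes endolymph and keeps its electrical potential. Ptgds encodes a secreted lipocalin that makes prostaglandin D and also carries small hydrophobic ligands. Glul encodes glutamine synthetase, which joins ammonia to glutamate in the cytosol. Selenop encodes a secreted protein that carries selenium between tissues in the form of selenocysteine residues. Lta4h encodes a cytosolic enzyme that hydrolyses the unstable leukotriene epoxide and also trims peptides. Hpse encodes heparanase, the endoglycosidase that cuts heparan sulfate chains in lysosomes and in the matrix. Of the 5 products, Ptgds, Selenop and Hpse are thus known as secreted or partly secreted, and Glul and Lta4h as cytosolic.

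Selenop is unlike the other members in its coding sequence, which spells selenocysteine with TGA, elsewhere a stop codon. In the GENCODE M21 annotation, the main Selenop transcript codes for 380 residues and holds 10 TGA codons in frame before its stop, against 0 in the main transcripts of Ptgds, Glul, Lta4h and Hpse. The first lies at codon 59, counted from the start codon, and the other 9 lie at codons 259 to 377. The stretch from codon 312 to the stop at codon 381 (GRCm38, chr15:3279501-3279710, plus strand) is shown because it holds 7 of the 10, given in capitals.
Selenop coding: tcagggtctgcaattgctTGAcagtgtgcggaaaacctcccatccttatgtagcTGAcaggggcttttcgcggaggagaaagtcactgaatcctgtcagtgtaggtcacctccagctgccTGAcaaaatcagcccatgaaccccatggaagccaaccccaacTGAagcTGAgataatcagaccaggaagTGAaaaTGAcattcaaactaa

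The promoters of the 5 genes were searched because their transcripts were high in the same fraction. The search covered the 250 bases before each start site in the RefSeq promoter table (GRCm38.p6), on both strands, for 7 motifs. These were the E-box CATGTG, the E-box CACGTG, the SOX motif ACAAAG, the box CCAAT, the box TATAAA, the AP-1 motif TGACTCA and the GC box GGGCGG. Among 32851 promoter windows of the same length, the shares that held them were 12.3%, 6.02%, 16.5%, 33.8%, 12.4%, 4.46% and 32.7%, in that order. Neither E-box nor the SOX motif was found in these windows of the 5 genes. Glul and Lta4h each held CCAAT at 2 places, Glul and Hpse a GC box, and Ptgds the AP-1 motif at bases -35 to -29. The searched motifs did not overlap one another in these windows. Selenop has 3 start sites in the table, and only the window of the most downstream one held a match, TATAAA at bases -10 to -5. The 120 bases before the start site are shown for Glul (chr1:153899809-153899928, plus strand), Lta4h (chr10:93453276-93453395, plus strand), Hpse (chr5:100719717-100719836, minus strand) and the most upstream start site of Selenop (chr15:3270647-3270766, plus strand), with matches in capitals. For Ptgds only 30 bases around its match are shown (chr2:25469765-25469794, minus strand), since part of its window is transcribed from another start site. A match is a description of the letters, not a shown binding site.
Ptgds promoter site: aggccaagccTGACTCAtaaatagggggtc
Glul promoter: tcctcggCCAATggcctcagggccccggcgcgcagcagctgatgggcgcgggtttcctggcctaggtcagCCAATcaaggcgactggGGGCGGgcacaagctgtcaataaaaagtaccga
Lta4h promoter: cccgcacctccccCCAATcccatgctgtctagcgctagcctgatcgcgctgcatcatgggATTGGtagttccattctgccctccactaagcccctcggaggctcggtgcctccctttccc
Hpse promoter: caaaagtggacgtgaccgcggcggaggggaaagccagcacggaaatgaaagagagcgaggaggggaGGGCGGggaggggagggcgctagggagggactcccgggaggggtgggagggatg
Selenop promoter: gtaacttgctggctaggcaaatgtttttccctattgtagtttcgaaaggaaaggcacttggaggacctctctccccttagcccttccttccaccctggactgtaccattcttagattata

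Each value in the table is a normalised read count, a number of reads divided by a factor for the size of its library. GFP positive cells are given as a mean that the authors made, and GFP negative cells as the value of 1 library. The digits of the mean show that it averages 2 libraries, here called A and B, whose whole reads could be recovered. The labels name only 1 GFP positive sample, and its title carries another number than the header of the mean, which shares its number with the title of the GFP negative one. A and B therefore cannot be tied to the labelled GFP positive sample, and no SD is given. Listed genes held 17120511 reads in library A, 16584559 in library B and 12114107 in the GFP negative library. In the authors' deposited table the highest adjusted p is 0.00986 and every gene differs at least 2-fold, and genes outside it have no value here. With 1 GFP negative library no ratio has a replicate check, and the 95% intervals, exact binomial (Clopper-Pearson), cover counting error only.

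Transcripts of the 5 genes were 13.9-fold to 516-fold more abundant in GFP positive than in GFP negative cells. Of all listed genes 43.6% were higher in GFP positive cells, and 18.1% were at least 4-fold higher on the log2(value + 1) scale, as were all 5 members. Nothing is read from that count because the genes were chosen on this contrast. Together they made up 5.28% of the summed GFP positive values of listed genes and 0.195% of the summed GFP negative values. Of the 34 listed genes with a GFP positive mean of at least 50000, all were higher in GFP positive cells. In these bulk libraries, fewer cells of a type and less RNA per cell cannot be told apart.

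Selenop stood at 413492 in library A and 441239 in library B of GFP positive cells, against 12381 in GFP negative cells. Both GFP positive values lay far above the GFP negative one, at a ratio of 34.5 (33.9 to 35.2). The GFP positive mean was 427365. Its split between A and B is less certain, since 15.5% of slightly altered averages also fitted a pair of whole reads. The last 439 bases of the Selenop gene overlap Ccdc152 on the opposite strand in GENCODE M21, and Ccdc152 was not listed.

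Ptgds stood at 156939 in library A and 169217 in library B, against 2235 in GFP negative cells. The GFP positive mean of 163078 was 72.95-fold higher (69.9 to 76.2). Its split between A and B is also less certain, with a pair for 3.5% of altered averages. Ptgds is a widely used marker of meningeal cells and glia in brain, and it is also known as a transcript of melanocytes.

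Glul stood at 132333 in library A and 138151 in library B, against 5963 in GFP negative cells. This was a ratio of 22.7 (22.1 to 23.3), with the GFP positive libraries close together and the GFP negative one well below. Glul overlaps Teddm2 on the opposite strand over 285 bases. Teddm2 stood at 72.7 in GFP positive cells against 6.26 in GFP negative cells. Whether the authors counted by strand is not given in the sources used here, so reads in that overlap cannot be told apart.

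Hpse stood at 78303 in library A and 85634 in library B, against 159 in GFP negative cells, where it rested on 152 reads. Its ratio was 516 (441 to 610). By GFP negative value it ranked 3349 of the 4197 listed genes. Lta4h stood at 52436 in library A and 55891 in library B, against 3902 in GFP negative cells. It had the smallest ratio of the 5, 13.9 (13.4 to 14.3).

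**Figure D1:**
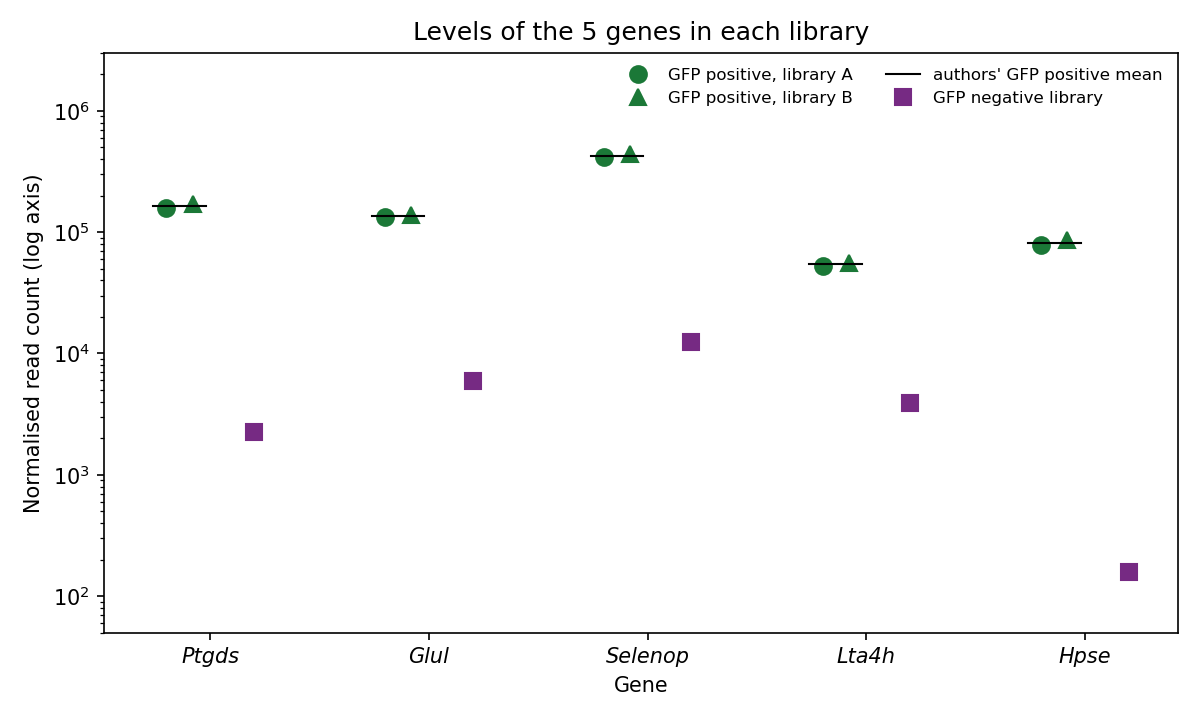
Normalised read counts (log axis) of the 5 genes in GFP positive libraries A (circles) and B (triangles), with the authors' mean as a line, and in the GFP negative library (squares). In each gene the GFP positive libraries nearly coincide, while the GFP negative values spread from 159 for Hpse to 12381 for Selenop.

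In order of ratio the genes were Hpse, Ptgds, Selenop, Glul and Lta4h, and no 2 neighbours had overlapping counting intervals. The same order held with library A alone, at ratios of 493, 70.2, 33.4, 22.2 and 13.4. It held with library B alone as well, at 540, 75.7, 35.6, 23.2 and 14.3. As each ratio uses the same single GFP negative library, its own spread is not known. The repeat of the order with A and with B is therefore no independent check. On the log2(value + 1) scale the ratios were 9.004, 6.19, 5.11, 4.50 and 3.79, against a median of -1.34 over all listed genes. By ratio they ranked 26, 65, 124, 157 and 228 among the 4197 genes. The ratio of Hpse was 37.2 times that of Lta4h.

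Libraries A and B differed little in the members. The log2 ratio of A over B ran from -0.13 for Hpse to -0.06 for Glul, so each gene was slightly higher in B. Of the 34 abundant listed genes above, which include the 5 members, 32 were higher in B. Over the 34 the median was -0.10 and the range -0.18 to 0.14. The members helped to set that range, so their place inside it is no comparison with other genes.

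**Figure D2:**
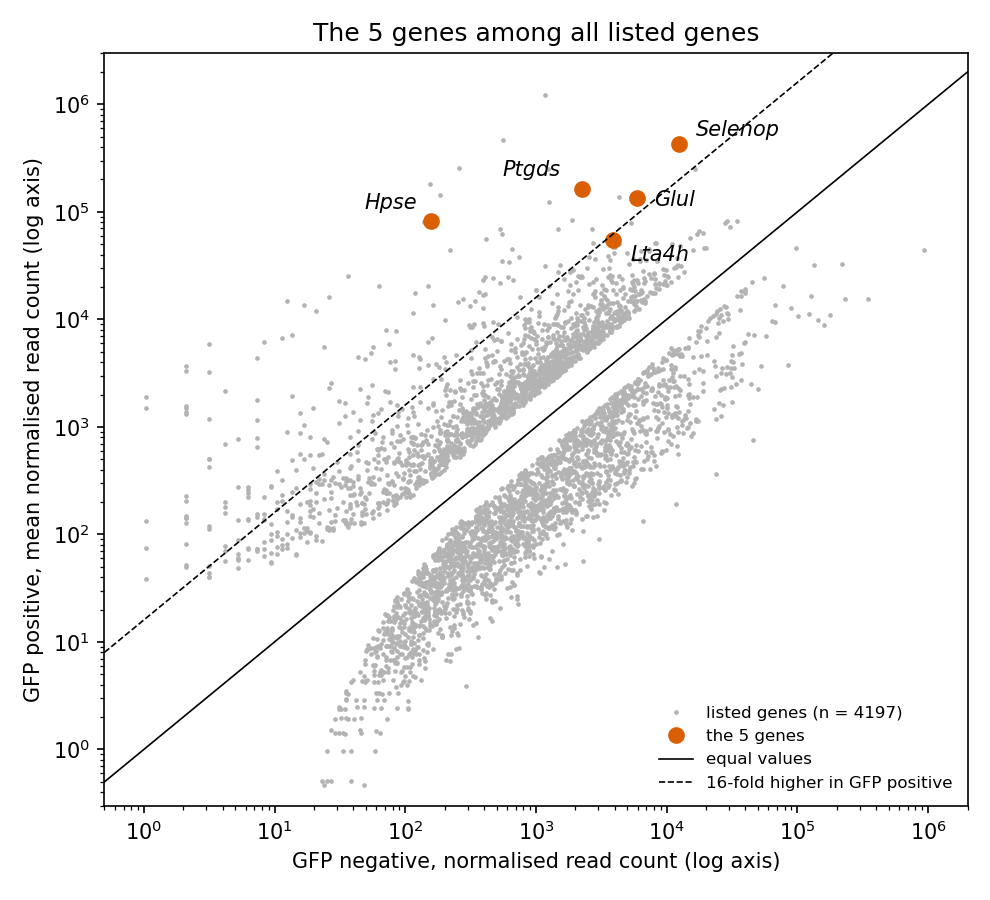
GFP positive mean against the GFP negative value of all 4197 listed genes (grey) and of the 5 genes (orange), both on log axes of normalised read counts, with lines at equal values and at a 16-fold higher GFP positive value. The empty band along the line of equal values is the authors' limit on listed genes, and Lta4h alone of the 5 lies under the 16-fold line.

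Longer transcripts yield more reads, so levels of different genes were compared as normalised read counts per kilobase of exon. On this scale Selenop reached 199238 and Ptgds 173857 in GFP positive cells, against 5772 and 2383 in GFP negative cells. They ranked 3 and 4 in GFP positive cells among 4064 genes with a known length, after Dct at 558474 and Pmel at 218382, both genes of the melanin granule. Ptgds moved up because its transcripts are short, with 938 bases of exon. Glul followed with 48439 per kilobase in GFP positive cells, against 2136 in GFP negative cells. Lta4h had 26695 against 1923 per kilobase, and Hpse 23313 against 45.1 per kilobase. The order of Lta4h and Hpse in GFP positive cells depends on the length used. With the main transcript of each in place of all exons the levels were 26695 for Lta4h and 26297 for Hpse.

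In GFP negative cells the order on the per kilobase scale was Selenop, Ptgds, Glul, Lta4h and Hpse, at ranks 120, 292, 326, 360 and 3342 of 4064. Hpse thus stood apart from the other 4 genes, which all ranked within the first 360. Set against the GFP positive mean, the GFP negative value was 0.194% for Hpse (0.164% to 0.227%), 1.37% for Ptgds (1.31% to 1.43%) and 2.90% for Selenop (2.84% to 2.95%). It was 4.41% for Glul (4.29% to 4.53%) and 7.20% for Lta4h (6.97% to 7.44%).

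Pigment markers give the scale for those percentages. All 15 names of a list of intermediate cell and melanocyte markers were listed and higher in GFP positive cells, 14 of them at least 4-fold. Their GFP negative value ranged from 0.0570% of the GFP positive mean for Tyrp1 to 32.7% for Kit, with a median of 0.163%. The Tyrp1 value rested on 2 GFP negative reads, that of Mlana on 25 and that of Kcnj13 on 35. Dct, the enzyme of melanin synthesis that was the most abundant of them, stood at 1229761 against 1182, or 0.0961%. The share of Hpse was larger than those of 9 of the 15 markers, next to Slc45a2, a transporter of the melanosome, with 0.175%. Among these 9, the counting intervals of Slc45a2, Mlana, Kcnj13 and Tyrp1 overlapped that of Hpse, so their order to Hpse is not settled. The share of Ptgds was larger than 12 of the 15, and its interval overlapped that of Mitf. Those of Selenop, Glul and Lta4h were larger than 14 of the 15, all but Kit.

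**Figure D3:**
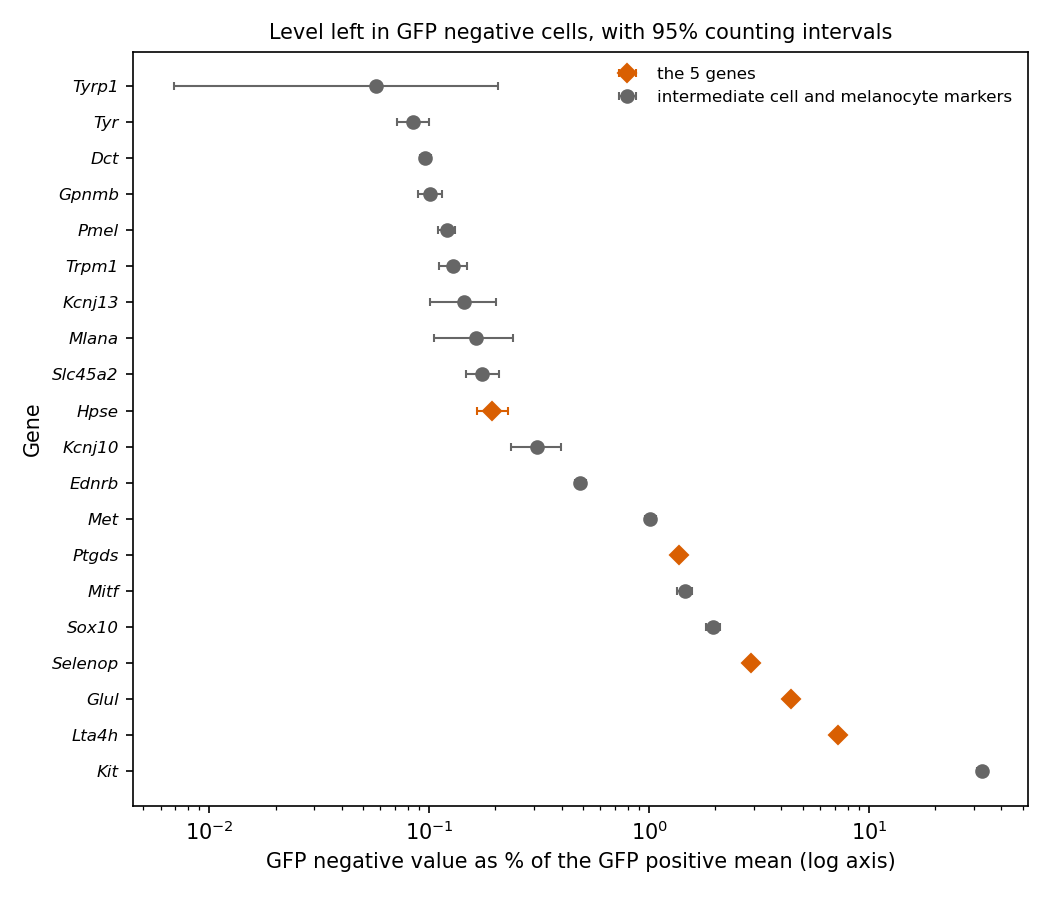
GFP negative value as a percentage of the GFP positive mean (log axis) for the 5 genes (diamonds) and 15 intermediate cell and melanocyte markers (circles), with 95% counting intervals as bars. Hpse at 0.194% lies between Slc45a2 and Kcnj10, whereas Ptgds, Selenop, Glul and Lta4h lie between 1.37% and 7.20%, beside or beyond Mitf and Sox10.

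Markers of other cells moved with the fractions as follows. All 9 listed Schwann cell and glia markers, of 12 names, were higher in GFP positive cells, with a summed value of 117479 against 6363. All 13 listed macrophage markers, of 14 names, were lower, with sums of 2050 against 10726 and the receptor gene Csf1r at 346 against 2105. Meningeal and perivascular fibroblast markers were lower for 9 of 9 listed of 15, with sums of 52428 against 341173 and the collagen gene Col1a2 at 32524 against 217441. Their part and that of glia in the members' values was not tested.

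Lower as well in GFP positive cells were 9 of 9 listed fibrocyte and otic mesenchyme markers, with sums of 53384 against 976365 and Otor, a secreted fibrocyte and cartilage protein, at 15609 against 349390. All 4 listed endothelial markers, of 10, were lower, with Emcn at 480 against 8046. Platelet markers were lower for 3 of 3 listed of 8, with the chemokine gene Pf4 at 96.0 against 478. All 6 listed red cell markers, of 8, were lower, with Hbb-bs at 752 against 45834. Markers outside the table have no value here, so none can be said to be at 0.

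Around the 5 genes, 11 lists of pathway genes with 206 names in all were followed, of which 73 names were listed. Without the 5 members, 26 of the other 68 were higher in GFP positive cells and 42 were lower. At 4-fold or more, 17 of the 68 were higher and 36 lower, which is 25.0% and 52.9%, against 18.1% and 36.9% of all listed genes. Among listed genes at 5 or more in both fractions, the median gene had a log2 ratio of -1.31, and relative to it each log2 ratio given here would be 1.31 larger.

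Among enzymes of prostaglandin synthesis, Ptgds stood beside a second prostaglandin D synthase that was also higher. Of 16 names 6 were listed, 4 higher and 2 lower, with 2 in each direction at 4-fold or more and a median log2 ratio of 1.45. Hpgds, the hematopoietic prostaglandin D synthase, stood at 2520 against 210 and was 12.0-fold higher (10.4 to 13.9). Its GFP positive level was nonetheless far under that of Ptgds, with 725 against 173857 per kilobase. Pla2g4a, the phospholipase that frees arachidonate, stood at 837 against 292, and the prostaglandin E synthase gene Ptges2 at 1370 against 523. The lower genes were Ptges, another prostaglandin E synthase, at 80.7 against 688, and Ptgs1, the constitutive cyclooxygenase, at 124 against 617. Ptgs2, the inducible cyclooxygenase, was not listed.

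Prostanoid receptors and removal genes were mostly lower in GFP positive cells, 7 of 8 listed of 15 names, all 7 at least 4-fold, with a median log2 ratio of -2.58. Lower genes were also the larger part of the whole table, 2366 of 4197. Of all listed genes 36.9% were at least 4-fold lower, and their median was -1.34. Neither receptor of prostaglandin D, Ptgdr or Ptgdr2, was listed. Tbxa2r, the thromboxane receptor, had the lowest log2 ratio, -3.34, at 11.6 against 126. The prostaglandin E receptor gene Ptger3 stood at 53.4 against 340, and the prostaglandin transporter gene Slco2a1 at 84.2 against 528. The highest value was that of Ptgfrn, a membrane protein that binds the prostaglandin F receptor, at 4671 against 31415. Ptgr2, a prostaglandin reductase, was the single higher gene, at 5270 against 1042 with a log2 ratio of 2.34. Hpgd, which inactivates prostaglandins, stood at 48.5 against 198.

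Most other listed genes of the leukotriene pathway around Lta4h were lower in GFP positive cells, and the 11 names not listed have no value here. Of 18 names 7 were listed, 2 higher and 5 lower, with 1 and 5 at 4-fold or more and a median log2 ratio of -2.31. Over all listed genes 18.1% were at least 4-fold higher and 36.9% at least 4-fold lower, with a median of -1.34. In GFP positive cells Lta4h had 26695 per kilobase, and the next gene was Mgst3, a microsomal glutathione transferase, with 911 per kilobase. Mgst3 stood at 999 against 394. Alox5, the lipoxygenase that makes its substrate, was not listed, and neither was Ltc4s, the rival enzyme for that substrate. Alox5ap, the partner protein of that lipoxygenase, stood at 30.5 against 156. The genes for receptors of the Lta4h product were rare in both fractions. Ltb4r1 had 3 reads over both GFP positive libraries against 61 in the GFP negative one, a ratio of 0.0225 (0.00452 to 0.0690). Ltb4r2 had 6 reads against 34. Ggt5, which breaks down cysteinyl leukotrienes, stood at 32.6 against 636.

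Of 21 names for enzymes of glutamine and glutamate 6 were listed, of which 3 were higher and 3 lower, 2 each way at 4-fold or more. Their median log2 ratio was -0.19, which became -1.51 without Glul and 1.12 when ratios were centred on the median listed gene. Glul had 48439 per kilobase in GFP positive cells, followed by Oat with 8834 per kilobase. Oat, ornithine aminotransferase, stood at 19011 against 8655 and Got1, the cytosolic aspartate aminotransferase, at 7940 against 1204. The glutaminase Gls2, which reverses the reaction of Glul, was lower at 21.9 against 147, with the lowest log2 ratio of the list, -2.69. Aldh18a1, of proline synthesis, stood at 1518 against 4331 and Gfpt2, of hexosamine synthesis, at 210 against 978.

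Of 21 carriers of glutamine and glutamate 9 were listed, of which 3 were higher, all at least 4-fold, and 6 lower, 5 of them at least 4-fold. Their median log2 ratio was -2.28, against -1.34 over all listed genes, of which 18.1% were at least 4-fold higher and 36.9% at least 4-fold lower. The count at least 4-fold higher became 2 when values were scaled to the listed totals, and also 2 with library A alone. The glutamate transporters that supply Glul with substrate in astrocytes were both lower. Slc1a2 stood at 1260 against 25918, with a log2 ratio of -4.36, and Slc1a3 at 541 against 7256, with -3.74. Slc38a3, a glutamine carrier, stood at 310 against 4851. The higher ones were the exchanger Slc7a5 at 38067 against 2547, a ratio of 14.9 (14.4 to 15.6), its partner chain Slc3a2 at 23378 against 5631, and Slc7a8, which pairs with the same chain, at 14076 against 1319. Slc1a5, Slc38a1 and Slc38a2 were not listed.

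Selenoprotein genes had 5 listed of 24 names, 3 higher and 2 lower, all at least 4-fold, with a median log2 ratio of 2.29 that became -0.034 without Selenop. Selenot, a selenoprotein of the endoplasmic reticulum, stood at 15263 against 3127, or 4834.6 against Selenop's 199238 per kilobase in GFP positive cells. Gpx2, a glutathione peroxidase, stood at 152 against 29.2. Selenom, another protein of the endoplasmic reticulum, was lower at 569 against 2912, and Dio2, the deiodinase that activates thyroid hormone, at 69.4 against 693 with the lowest log2 ratio, -3.30. The calls of Selenot and Gpx2 rest on the scaling, since only Selenop kept a 4-fold higher level when values were scaled to the listed totals.

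Of 13 names for selenium uptake and selenocysteine insertion 3 were listed. Scly, which frees selenium from selenocysteine, stood at 11636 against 1060 and was 11.0-fold higher (10.3 to 11.7). Secisbp2l, a relative of the protein that reads the selenocysteine signal, stood at 10948 against 5069. Lrp1, a receptor of the family to which the Selenop receptors belong, was lower at 9516 against 67264. The Selenop receptors Lrp8 and Lrp2 were not listed.

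Genes for heparan sulfate breakdown were the single pathway list with every listed gene higher in GFP positive cells, 5 of 5 of 12 names, with 3 at 4-fold or more and a median log2 ratio of 2.05, or 1.57 without Hpse. These counts include Hpse, which was chosen for its high GFP positive level. Of all listed genes 43.6% were higher and 18.1% at least 4-fold higher. Apart from Hpse the listed breakdown genes were lysosomal exoenzymes with much smaller differences. Among them Naglu stood at 9956 against 2096, Gusb at 6625 against 3235 and Sgsh at 2883 against 693. The log2 ratios of these ran from 1.03 for Gusb to 2.25 for Naglu, against 9.004 for Hpse. Scaled to the listed totals, Hpse alone kept a 4-fold higher level. Hpse2, a relative of heparanase, and Ctsl, the protease that activates it, were not listed.

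Carriers of heparan sulfate were lower for 8 of 11 listed of 17 names, with 2 higher and 5 lower at 4-fold or more and a median log2 ratio of -1.77. Over all listed genes the shares at 4-fold or more were 18.1% higher and 36.9% lower, and the median was -1.34. The 3 higher ones were Sdc3, a syndecan, at 27820 against 13585, Cd44, a hyaluronan receptor, at 27548 against 1466, and Gpc1, a glypican, at 21999 against 4096. They also had the 3 highest levels per kilobase in GFP positive cells, 5594 for Sdc3, 5268 for Gpc1 and 4872 for Cd44. The glypican genes Gpc2 to Gpc6 were all lower, with Gpc3 at 2108 against 8632 and Gpc5 lowest, at 9 reads over both GFP positive libraries against 55 and a log2 ratio of -3.47. Sdc1 and Sdc2, other syndecans, had log2 ratios of -1.34 and -1.11, and centring on the median listed gene would bring that of Sdc2 above 0. Sdc4 was not listed.

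Of 28 names for heparan sulfate synthesis and sulfation 7 were listed, and 5 of these were at least 4-fold lower, with a median log2 ratio of -2.55 for the list. The share at least 4-fold lower was 36.9% over all listed genes, with a median of -1.34. The higher ones were Xylt1, which starts the chain, at 774 against 55.3 and a log2 ratio of 3.78, and Extl1 at 1449 against 190. Sulf1, which removes sulfate from finished chains, stood at 1093 against 5961. The sulfotransferase genes Hs6st2, at 307 against 2116, and Hs3st1, at 263 against 1549, were lower too, and Hs3st3b1 had the lowest log2 ratio, -3.65, at 58.9 against 753.

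**Figure D4:**
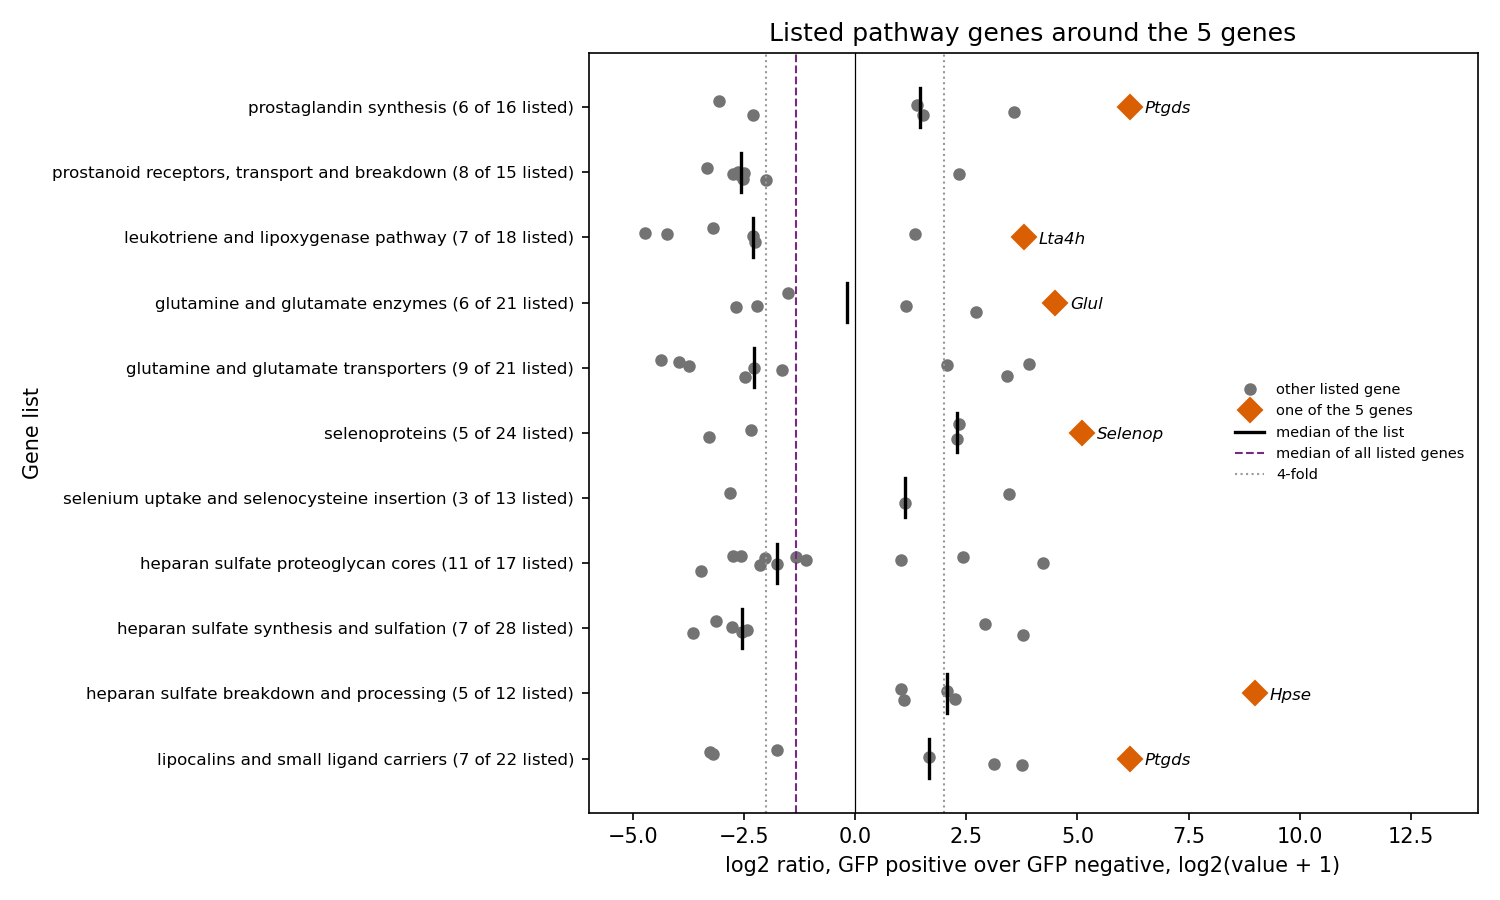
Difference in log2(value + 1), GFP positive minus GFP negative, for the listed genes of 11 pathway lists (grey), with the 5 genes as orange diamonds, list medians as bars and the median of all listed genes, -1.34, as a dashed line. Each of the 5 genes lies at the far right of its list, as its choice for a high GFP positive level favours, and the heparan sulfate breakdown list alone of the 11 has no gene left of 0.

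Genes with values most like each member, not corrected for length, were sought by distance on log2(value + 1) of the GFP positive mean and the GFP negative value, that is over 2 columns only. Hpse lay nearest to Slc45a2, at a distance of 0.18, with 80164 against 140, and then to Trpm1 and C2 at 0.84 and 1.02. Lta4h lay nearest to Nrp2, Tecpr1 and Myo5a, all within 0.21. For Ptgds the nearest were Met, 5031439G07Rik and Dkk3, the first at 0.91, and for Glul 5031439G07Rik at 0.46, Gsta4 at 0.81 and Ptgds itself at 1.44. Among the nearest to Selenop were Glul at 1.97 and 5031439G07Rik at 2.24. Of the 5, only Hpse had its 2 nearest genes on the intermediate cell and melanocyte list.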

How the data were processed

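RNA of GFP positive and GFP negative cells of the P0 lateral wall was sequenced with an Illumina TruSeq kit, and reads were aligned with STAR to mm9, per the submitters' processing notes. How reads were counted and normalised is not given in the sources used here. In the deposited table, the signal is a read count over a size factor, of 0.958 (GFP negative), 1.07 (A) and 0.991 (B): 100% of GFP negative values were whole reads within 1e-06 reads, and 100% of the averages fitted exactly 1 pair of whole numbers within a relative tolerance of 1e-13. Averages altered slightly had a pair in 0.0477% of all genes, but in 15.5% of 200 trials for Selenop and 3.5% for Ptgds, so their split between A and B is less certain. Per the file headers the authors also deposited the ratio and its log2, and a p-value with its adjusted form.

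Values were used as deposited, with a pseudocount of 1. Called means 4-fold or more where the larger value is 5 or above. Of 4197 gene IDs, 4064 matched GENCODE M21 (GRCm38), which gave names and exon lengths. Its build differs from mm9, so lengths per kilobase are approximate. Sequences are from RefSeq (GRCm38.p6) and GENCODE. The design, written for 1 sample per group, gives no test. edgeR 4.0.16 on recovered reads, an alternative, called 4197 of 4197 genes at an adjusted p of 0.05. With the genes preselected and 1 GFP negative library, it compares libraries, not conditions. On simulated reads of 4197 genes it called 100% of 200 genes raised 4-fold and 0.300% of unchanged ones. The simulation gave all libraries the same spread (dispersion 0.00854) and left most genes unchanged, unlike the preselected genes here. It therefore cannot show the error rate for these data, where the spread of GFP negative samples is unknown. Members and lists were chosen with earlier results of these data known. Named genes are the members, their listed partners, the 3 most abundant genes and the extremes of each list, the leading gene of each marker list and the 3 nearest genes. Some genes that this rule names are not reported here. Others were added after their values were seen.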

Additional observations from a re-analysis of the deposited data

How the results depend on the processing

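The sign of the log2 ratio of Ptgds, Glul, Selenop, Lta4h and Hpse held under all 6 settings tried, and 12 of the 30 recomputed values moved beyond the counting interval. In the order Ptgds, Glul, Selenop, Lta4h and Hpse, scaling to the total of listed genes gave 5.82, 4.13, 4.74, 3.43 and 8.63, and centring on the median listed gene gave 7.50, 5.82, 6.42, 5.11 and 10.32. Scaling shifts every log2 ratio by about -0.37 and centring by 1.31. For Selenop, whose counting interval is narrow and whose split between A and B is less certain, library A alone gave 5.06 and library B alone 5.16. Pseudocounts of 0.1 and 10 left all 5 within their intervals. Of the list medians, 3 changed sign: that of glutamine and glutamate enzymes became 1.12 with centring, that of selenoproteins -0.034 and that of lipocalins and small ligand carriers -0.051 without the members. The edgeR test on recovered reads called 1831 higher and 2366 lower, the same counts as the table. Counts of genes at 4-fold or more depend on scaling and on the fold. Not every change is given here, so a list that is not named under a setting may still have changed. With centring, 1831 listed genes were higher and 466 lower. Higher counts became 4 for prostaglandin synthesis, 2 for leukotrienes, 2 for selenium uptake and 5 for heparan sulfate breakdown. They also became 3 for glutamine enzymes, 3 for heparan sulfate carriers and 4 for lipocalins. Lower counts became 0 for prostaglandin synthesis, 1 for prostanoid receptors, 2 for leukotrienes, 0 for glutamine enzymes, 3 for glutamine carriers, 0 for selenoproteins, 0 for selenium uptake, 1 for heparan sulfate carriers, 1 for heparan sulfate synthesis and 0 for lipocalins. With scaling to the listed total, higher counts became 0 for prostanoid receptors, 2 for glutamine carriers, 1 for selenoproteins and 1 for heparan sulfate breakdown. A limit of 2-fold gave 1830 higher and 2365 lower listed genes, with 4 higher for prostaglandin synthesis, 2 for leukotrienes, 2 for selenium uptake and 5 for heparan sulfate breakdown, and 8 lower for heparan sulfate carriers. A limit of 8-fold gave 395 higher and 706 lower listed genes. Higher counts were then 0 for prostanoid receptors and 1 each for glutamine enzymes, selenoproteins, heparan sulfate carriers, synthesis and breakdown. Lower counts were 1 for prostaglandin synthesis, 1 for prostanoid receptors, 3 for leukotrienes, 0 for glutamine enzymes, 3 for glutamine carriers, 1 for selenoproteins, 0 for selenium uptake, 1 for heparan sulfate carriers and 2 for heparan sulfate synthesis. A pseudocount of 10 gave 4 lower for prostanoid receptors and 3 for leukotrienes, and a minimum value of 100 gave 2 lower for leukotrienes. No paired analysis was possible because the labels give 1 sample per group, and the edgeR test had 1 GFP negative library. With 1 GFP negative library, the spread between GFP negative samples is unknown, and for rare genes such as the leukotriene receptors the reads limit the ratio.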

Other observations

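Ptgds belongs to the lipocalins, and a list of lipocalins and other small ligand carriers went both ways in GFP positive cells. Of 22 names 7 were listed, 4 higher and 3 lower, with 3 and 2 at 4-fold or more and a median log2 ratio of 1.66. Apod, another secreted lipocalin, was lower at 1265 against 11681, opposite to Ptgds. Ttr, the carrier of thyroid hormone and retinol-binding protein, stood at 588 against 42.8, a ratio of 13.7 (10.1 to 19.2). Among intracellular fatty acid-binding proteins Fabp7, a glial gene, stood at 4049 against 467 and Fabp3 at 151 against 47.0, while Fabp5 stood at 227 against 772. Crabp2, which binds retinoic acid, had the lowest log2 ratio of the list, -3.28, at 225 against 2188.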
